A study of Glycine soja with 14 samples.

Results

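Roots of wild soybean (Glycine soja) held for 0.5 h in bicarbonate were compared with roots that had received no stress. The comparison rests on 4 of the 14 arrays of the series, 2 at 0.5 h and 2 at 0 h, chosen by the hours of treatment in their labels. All plants were seedlings of the line G07256, 21 days old per the labels, and the 3 cm root apex of 3 plants was pooled for each array. The 0 h plants stood in diluted Hoagland's solution, and the treated plants were placed in 50 mmol/L NaHCO3 at pH 8.5. Roots moved for 0.5 h into fresh solution without bicarbonate were not analysed here, so the transfer and the bicarbonate cannot be told apart. RNA was hybridized to the Affymetrix Soybean Genome Array, whose probes were designed on cultivated soybean (Glycine max) and which also carries probe sets of the pathogens Phytophthora sojae and Heterodera glycines. A probe set is the group of short probes that reads 1 transcript, and a name ending in _s_at or _x_at marks a set that may read several related transcripts. Only soybean probe sets were used, 28566 of 37593 being tested after a filter on low and irreproducible values. All levels below are log2 of the deposited intensity, and all changes are the mean at 0.5 h minus the mean at 0 h on that scale.

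Sodium bicarbonate brings sodium, a high pH and bicarbonate ions to the root surface at the same time. In the first minutes of such a stress plant roots move calcium, activate protein kinases, and switch on genes for transcription factors of the WRKY, ERF and C2H2 zinc finger families, many of which are transcribed for a short time only. Jasmonate, made from plastid lipids by lipoxygenase, allene oxide synthase, allene oxide cyclase and 12-oxophytodienoate reductase, and ethylene, made through 1-aminocyclopropane-1-carboxylate (ACC) synthase, are hormones of these early responses. Phosphoenolpyruvate (PEP) carboxylase kinase switches on the carboxylase that fixes bicarbonate into organic acid.

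The arrays differed in ways that touch the results. The spiked hybridization control BioB lay at 7.22 on 0.5 h replicate 1 and between 8.26 and 8.79 on the other 3 arrays, and BioC and BioD were likewise low on that array, whereas Cre lay between 12.43 and 12.64 on all 4. The spiked poly-A controls, added before labelling, averaged 6.18 and 6.14 at 0 h and 7.02 and 7.21 at 0.5 h, so both treated arrays were higher. The reference transcript gapdh measured 11.72 and 11.80 at 0 h and 11.96 and 12.00 at 0.5 h, or a change of 0.22 ± 0.16 (SE) that did not pass the test (limma adjusted p = 0.552). Replicates correlated with r = 0.971 at 0 h and r = 0.958 at 0.5 h across the tested probe sets, which are not independent of each other. Of 43 probe sets for root genes (aquaporins, expansins, peroxidases and transporters of nitrate and phosphate) 41 lay above background. Of 16 for seed storage proteins and trypsin inhibitors 3 did, and of 16 for photosynthesis genes of green tissue 13 did. The green tissue set summed to 8942 and 7103 at 0 h and to 5979 and 10100 on 0.5 h replicates 1 and 2, and none of it was called. The 13 probe sets of nodule genes, which mark root tissue that houses rhizobia, split the treated arrays. Their summed intensity was 14120 and 10350 at 0 h, 22340 on 0.5 h replicate 1 and 1476 on 0.5 h replicate 2. N-44, for example, read 4960 and 3120 at 0 h, 7400 on 0.5 h replicate 1 and 2.23 on 0.5 h replicate 2. All 13 lay above both 0 h arrays on 0.5 h replicate 1 and below both on 0.5 h replicate 2. Only 3 were tested and none of these was called. The others were removed by the filter on irreproducible values, so the absence of calls carries no information on nodule genes. When 0.5 h replicate 1 is left out, a sample almost without nodule transcripts is compared with 2 samples that have them, and the part of this in the calls of that fit was not tested.

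**Figure D1:**
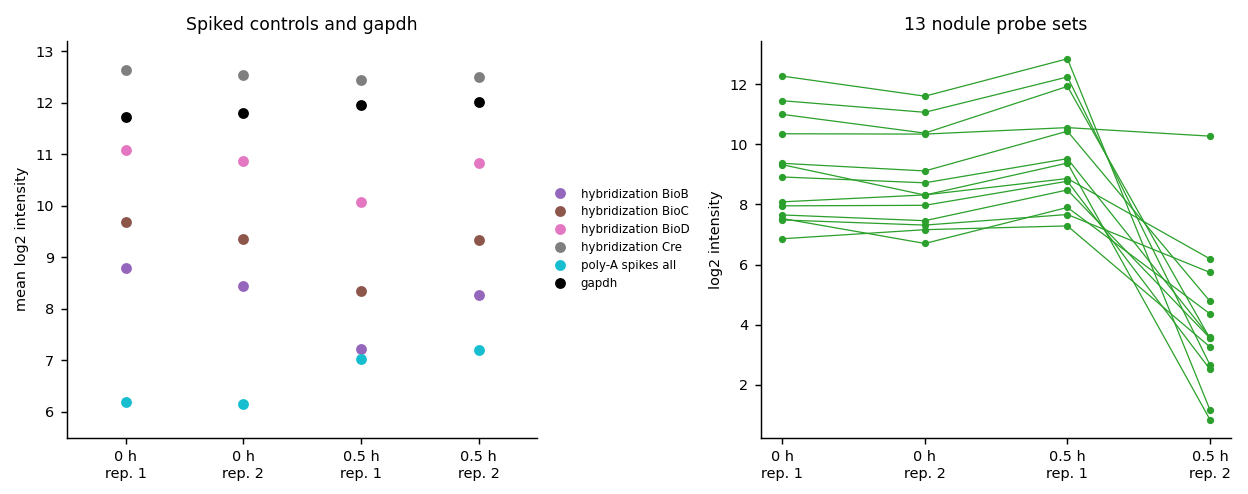
Left, mean log2 intensity (vertical axis) of spiked controls and of gapdh on the 4 arrays (horizontal axis), with BioB, BioC and BioD lowest on 0.5 h replicate 1 and the poly-A spikes higher on both 0.5 h arrays. Right, log2 intensity of the 13 nodule probe sets on the same arrays, a line joining the values of 1 probe set, with every probe set lowest on 0.5 h replicate 2.

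With all arrays, 647 probe sets rose and 935 fell at 0.5 h, which is 2.26% and 3.27% of those tested. Together they made up 5.54%. To be called, a probe set had to reach p under 0.05 in limma and stay under 0.15 after Benjamini-Hochberg adjustment, and by the first limit alone 2041 were higher and 2690 lower. Called changes were moderate, with a median rise of 0.94 and a median fall of 1.06, and 281 rises and 512 falls exceeded 1. The strongest rise was 4.02 and the strongest fall was 4.59 (n = 2 arrays a group throughout). Every called probe set had both 0.5 h values above or both below the 0 h values, a pattern that 22.7% of all tested probe sets showed upward and 25.7% downward.

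The number of calls depended on single arrays. Without 0.5 h replicate 1, 234 probe sets were higher (0.819%) and 258 lower (0.903%), and 175 rises (0.613%) and 211 falls (0.739%) were called both with and without that array. Together these were 386 probe sets (1.35%), while 1196 (4.19%) lost the call, and none turned direction. The counts also dropped without 0 h replicate 1 (206 higher and 356 lower) and without 0 h replicate 2 (183 and 142), while without 0.5 h replicate 2 there were 596 rises and 1248 falls. Leaving out each of the 4 arrays in turn, 75 rises (0.263%) and 95 falls (0.333%) were called every time. Of the called probe sets 40.9% were rises, against 54.1% when each array was centred on its median and 49.0% after quantile normalization, so no statement rests on falls outnumbering rises. A trial on simulated arrays recovered 48 of 100 probe sets changed by 1 and 84 of 100 changed by 2. The other 28366 simulated probe sets were unchanged and the noise was independent between probe sets. These rates therefore need not hold for the real arrays.

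**Figure D2:**
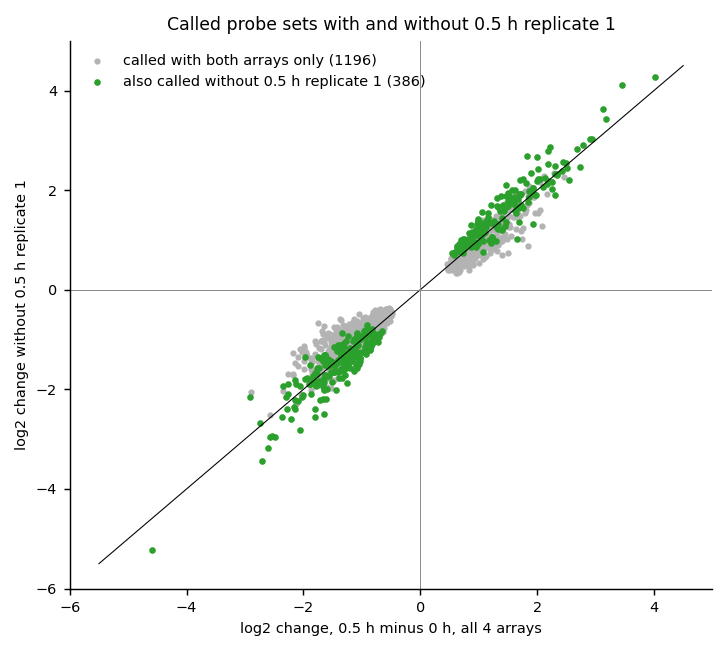
Change of each called probe set with all 4 arrays (horizontal axis, log2) against its change without 0.5 h replicate 1 (vertical axis, log2), with the line of equal values. The 386 probe sets in green were called both ways and the 1196 in grey lost the call, and all points lie at the lower left or the upper right of the origin.

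WRKY factors, which bind the W-box of stress and defence genes, were among the strongest rises. Of 90 tested probe sets with a WRKY symbol, 6 rose and 2 fell (6.67% and 2.22%), with a median change of 0.18 against -0.02 over all tested probe sets. Of all tested probe sets with a symbol other than a locus number 4.26% rose and 4.26% fell, the shares to set beside every list taken by symbol below. The clearest member was a probe set that the study described as WRKY53, a regulator of senescence and defence in Arabidopsis. WRKY53 measured 6.02 and 5.68 at 0 h and 8.39 and 8.67 at 0.5 h, or a 6.40-fold rise (2.68 ± 0.26 SE, limma adjusted p = 0.00501). A second probe set with that description rose by 2.31. WRKY5 measured 6.09 and 6.33 at 0 h and 8.68 and 8.59 at 0.5 h (2.42 ± 0.35, limma adjusted p = 0.0145). For WRKY5 and the first WRKY53 probe set, the treated values lay over 2 units above every untreated value and the call was made whichever array was left out. WRKY12 rose by 1.59 ± 0.26 and was likewise called in each of the 4 leave-one-out fits. WRKY43 (2.30 ± 0.46), in contrast, was not called without 0.5 h replicate 1 (limma adjusted p = 0.169) or without 0 h replicate 2, where its own 0 h values of 6.12 and 4.73 lay far apart, and WRKY46 (1.88 ± 0.43), WRKY24 (1.00 ± 0.24) and WRKY60 (1.09 ± 0.28) also lost the call without 0.5 h replicate 1. The falls were WRKY50 (-1.37 ± 0.32) and WRKY37 (-0.57 ± 0.16), both lost without that array.

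WRKY41, a factor also followed by quantitative real-time PCR, rose by 2.09 ± 0.25 (limma adjusted p = 0.00688). Its levels were 7.12 and 7.38 at 0 h and 9.39 and 9.30 at 0.5 h, or a tight 4.27-fold separation that was called in every leave-one-out fit. CPK32, a calcium-dependent protein kinase, measured 8.07 and 8.15 at 0 h and 9.06 and 9.01 at 0.5 h (0.92 ± 0.14, limma adjusted p = 0.0164). The ZIM motif protein and the pectinesterase described further below were in the same PCR set and fell on the arrays. A homeodomain-leucine zipper (HDZip I) probe set of the PCR set also fell (-0.70 ± 0.20) but was lost whichever array was left out. No PCR values are given here. The primers that the study designed for WRKY41, CPK32, the ZIM motif protein and the pectinesterase are shown because they are the deposited oligos that identify them. They are written in lower case from the 5′ end to the 3′ end, with nothing marked by capitals, and their genome positions were not determined here.
WRKY41 sense: ggccatcaaggatcaccataat
WRKY41 antisense: ggctccaaggatgtctttctga
CPK32 sense: gcaaggctcaagcaattttc
CPK32 antisense: attcgggaacttgatgacca
ZIM motif protein sense: cactgccaataattcggttca
ZIM motif protein antisense: gctgccatgtgattgcttgt
pectinesterase sense: gcagtgaggaacaatgctga
pectinesterase antisense: cttctggtttggcaatggtt

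Zinc finger factors gave 3 rises and 1 fall among 6 probe sets taken by description (50.0% and 16.7%), where 5.80% and 4.34% of all described ones were called. SCOF-1, a C2H2 zinc finger first known from cold-treated soybean, was read by 3 probe sets and all 3 rose. The strongest of them measured 7.79 and 7.45 at 0 h and 9.35 and 9.33 at 0.5 h (1.72 ± 0.28, limma adjusted p = 0.0209), the others rising by 1.67 and 1.27. CZF1, a CCCH zinc finger of Arabidopsis salt and defence responses, measured 8.40 and 8.44 at 0 h and 10.31 and 10.63 at 0.5 h (2.05 ± 0.23, limma adjusted p = 0.00653). STZ, the salt tolerance zinc finger, measured 8.26 and 8.37 at 0 h and 9.67 and 9.63 at 0.5 h (1.34 ± 0.20, limma adjusted p = 0.0153). In these 3 probe sets the replicates differed by far less than the groups did, and the call held in every leave-one-out fit. The SCOF-1 probe set at 1.67 held likewise, while the one at 1.27 was lost without 0 h replicate 2 or either 0.5 h array. A second STZ probe set rose by 1.15 ± 0.25 and was lost without 0.5 h replicate 1 or either 0 h array. Another C2H2 probe set of the same description list fell by 0.63 ± 0.19 and lost the call whichever array was left out.

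Probe sets described as CCR4-NOT proteins, subunits of the complex that shortens poly(A) tails of mRNA, held the largest rise among genes with a name other than a locus number. Of 5 tested, 3 rose and none fell, with a median change of 2.33. The top member measured 6.99 and 6.97 at 0 h and 9.834 and 10.001 at 0.5 h, or a 7.67-fold rise (2.94 ± 0.28, limma adjusted p = 0.00501). The other two rose by 2.52 ± 0.29 and 2.33 ± 0.25, and all 3 were called in each of the 4 leave-one-out fits. These descriptions come from tables of probe sets that the study had selected on these same arrays, many of them as rising in the first hours, so the direction of any list taken by description is not independent of these data. Of all tested probe sets with such a description 5.80% rose and 4.34% fell, the shares to set beside every list taken by description.

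**Figure D3:**
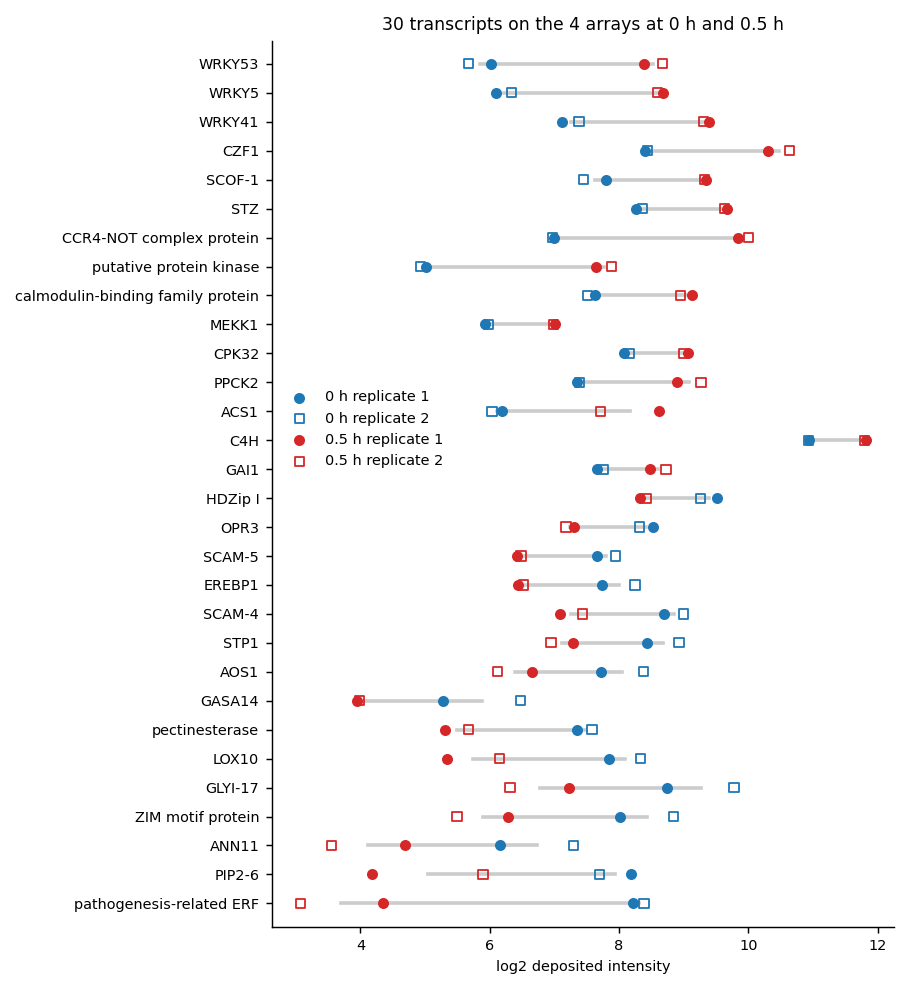
Log2 intensity (horizontal axis) of 30 transcripts (rows) on each of the 4 arrays, blue for 0 h and red for 0.5 h, filled circles for replicate 1 and open squares for replicate 2, with a grey bar between the group means. The 2 groups do not overlap in any row, and the replicates at 0.5 h lie farthest apart in PIP2-6 at 4.18 and 5.89.

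ERF factors, which carry the AP2 DNA-binding domain and several of which act downstream of ethylene, moved in both directions. The deepest fall of any probe set belonged to a pathogenesis-related ERF. It measured 8.22 and 8.39 at 0 h and 4.34 and 3.07 at 0.5 h (-4.59 ± 0.50, limma adjusted p = 0.00579). The last value and the treated mean, 3.71, lay below the background level of 3.91, and with that value raised to background the level was at least 18-fold lower. The treated values differ by over 1 unit, yet both lie far under the untreated pair, and the call held in each leave-one-out fit. EREBP1, an ethylene-responsive element binding protein of soybean, measured 7.74 and 8.25 at 0 h and 6.44 and 6.52 at 0.5 h (-1.51 ± 0.19, limma adjusted p = 0.0074). On the other side, ERF9 rose by 1.10 ± 0.20, 2 probe sets described as ERF5 rose by 1.20 ± 0.25 and 0.94 ± 0.23, and the factor EREB rose by 0.94 ± 0.23. ERF9 was lost without 0 h replicate 2. The first ERF5 probe set was lost without either 0 h array, and the second and EREB whichever array was left out. By symbol 2 of 17 AP2/ERF and DREB probe sets rose, EREB and ERF5 (0.85 ± 0.25), and 2 fell, EREBP1 and DREB (-0.68 ± 0.16), and of these 4 only EREBP1 was called also without 0.5 h replicate 1.

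The other large factor families gave counts close to the background, apart from MYB. Of 72 tested MYB probe sets 7 rose and 1 fell (9.72% and 1.39%), and 3 of the 7 were also called without 0.5 h replicate 1. MYB138, by 2 probe sets, rose by 0.99 ± 0.23 and 0.86 ± 0.26, MYB92 by 1.16 ± 0.32 and 0.91 ± 0.27, MYB177 by 1.11 ± 0.31, MYB134 by 0.78 ± 0.20 and MYB57 by 0.70 ± 0.21. MYB factors include regulators of phenylpropanoid and flavonoid genes. None of these MYB probe sets was called in all 4 leave-one-out fits. NAC6, a NAC factor of drought and senescence responses, measured 6.59 and 6.00 at 0 h and 7.51 and 8.07 at 0.5 h (2.82-fold, SE 0.29 on the log2 scale, limma adjusted p = 0.0398). It was lost without 0 h replicate 2. NAC6 was the only rise among 28 NAC probe sets, beside 1 fall, NAC2 (-0.64 ± 0.18), which was lost whichever array was left out. Of 79 bZIP probe sets 1 rose (BZIP114, 1.44 ± 0.20) and 3 fell, each lost without 0.5 h replicate 1. BZIP114 had 1 of its 0 h values below background, and the study described its probe set as similar to a protein of unknown function. BZIP59 fell by 1.44 and BZIP38 by 1.21, while BZIP112 was below background on both treated arrays and at least 1.73-fold lower. BZIP114 and BZIP59 were each called in 1 of 3 tested probe sets. Homeodomain-leucine zipper (HDZip I) factors, which act in drought and abscisic acid responses, fell in 3 of 4 probe sets by 1.01, 0.89 and 0.70, and the first of these measured 9.52 and 9.26 at 0 h and 8.33 and 8.43 at 0.5 h. It and the second were called in each leave-one-out fit.

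Kinases pass signals on by phosphorylating proteins. Of 156 tested probe sets described as protein kinases 14 rose and 9 fell (8.97% and 5.77%, against 5.80% and 4.34% of all described probe sets), and 9 of the 14 against 1 of the 9 were also called without 0.5 h replicate 1. A putative protein kinase measured 5.02 and 4.93 at 0 h and 7.65 and 7.88 at 0.5 h, or a 6.93-fold rise (2.79 ± 0.32, limma adjusted p = 0.00653). MEKK1, the upstream kinase of a mitogen-activated cascade in Arabidopsis, measured 5.92 and 5.97 at 0 h and 7.002 and 6.989 at 0.5 h (1.05 ± 0.18, limma adjusted p = 0.0288). RKF3, a receptor-like kinase, rose by 1.17 ± 0.19, and like MEKK1 it was called in each leave-one-out fit. MPK3, the mitogen-activated kinase at the end of such cascades, rose by 0.85 ± 0.19 and was lost without 0.5 h replicate 1. MKK2, a middle kinase of the cascade, fell by 1.28 ± 0.30, again lost without that array. The proline-rich extensin-like receptor kinase PERK1 fell in both of its probe sets, by 0.83 (lost without 0 h replicate 2) and 0.55 (lost whichever array was left out). Among 23 receptor and other kinase probe sets with a symbol these were 2 of 3 falls, beside 1 rise.

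Calmodulins carry calcium signals to their targets, and annexins are calcium-dependent membrane proteins. Of 19 tested calmodulin, calcium-dependent kinase and annexin probe sets with a symbol none rose and 4 fell, and all 4 were called also without 0.5 h replicate 1. The 4 falls were of calmodulins and an annexin. Calcium-dependent kinases known only by description lay outside this list, and some of them rose. CPK32 rose by 0.92 ± 0.14, as given above, and another CPK32 probe set by 0.84 ± 0.24, lost whichever array was left out. A further described kinase of this type rose by 0.86 ± 0.22 and was lost without 0.5 h replicate 1 or either 0 h array. SCAM-4, a divergent soybean calmodulin, measured 8.70 and 8.99 at 0 h and 7.09 and 7.43 at 0.5 h (-1.58 ± 0.22, limma adjusted p = 0.0123), and its second probe set fell by 1.43. SCAM-5, its close relative, measured 7.66 and 7.95 at 0 h and 6.43 and 6.48 at 0.5 h (-1.35 ± 0.17, limma adjusted p = 0.00775). The annexin ANN11 measured 6.16 and 7.30 at 0 h and 4.69 and 3.55 at 0.5 h (-2.61 ± 0.47, limma adjusted p = 0.0297), with replicates over 1 unit apart in both groups and the last value below background, and it was lost without 0 h replicate 2. It was called in 1 of 2 tested probe sets. Probe sets described as calmodulin-binding proteins gave 2 rises and no fall among 7, with a median change of -0.02 over the list, and the difference between the 2 lists was not tested. The stronger of these measured 7.63 and 7.52 at 0 h and 9.12 and 8.94 at 0.5 h (1.46 ± 0.17, limma adjusted p = 0.00661), and the second rose by 1.30 ± 0.16.

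Several probe sets of jasmonate synthesis, the route from linolenic acid to the hormone, fell. By symbol 5 of 30 probe sets fell and 2 rose, and by description, in a list that shares genes with the first, 4 of 18 fell and none rose, the 4 being called also without 0.5 h replicate 1. The falls made up 16.7% of the list by symbol and 22.2% of the list by description. Of all tested probe sets with a symbol other than a locus number 4.26% fell, and of all described ones 4.34%. Not called were 23 of the 30 and 14 of the 18. Lipoxygenase, allene oxide synthase, allene oxide cyclase and 12-oxophytodienoate reductase were each among the falls. The lipoxygenase LOX10, the first step, measured 7.84 and 8.33 at 0 h and 5.33 and 6.14 at 0.5 h, 5.08-fold lower (-2.34 ± 0.39, limma adjusted p = 0.0243). Allene oxide synthase, AOS1, measured 7.72 and 8.38 at 0 h and 6.65 and 6.13 at 0.5 h (-1.66 ± 0.28, limma adjusted p = 0.025). The allene oxide cyclases AOC3 (-0.95 ± 0.24 and -0.85 ± 0.24) and AOC6 (-0.93 ± 0.25) fell less and were lost without 0.5 h replicate 1. OPR3, the 12-oxophytodienoate reductase of jasmonate synthesis, measured 8.53 and 8.31 at 0 h and 7.30 and 7.18 at 0.5 h (-1.18 ± 0.20, limma adjusted p = 0.0248) and was called in each leave-one-out fit. LOX10 and AOS1 were each lost only without 0 h replicate 2. The 4 probe sets of LOX7 and the 5 of LOX9 tested did not pass the test, nor did a second AOS1 probe set (-0.79), AOS2 (-0.39) or AOC4 (-0.44), and a probe set described as OPR1 stood at 0.59. The ZIM motif protein, whose family includes the repressors that jasmonate degrades, measured 8.01 and 8.84 at 0 h and 6.28 and 5.49 at 0.5 h (-2.54 ± 0.33, limma adjusted p = 0.00871). The jasmonate receptor subunit COI1, in contrast, rose in 2 of its 6 probe sets, by 1.11 ± 0.23 and 0.84 ± 0.22. Both of these calls depended on having 0 h replicate 2 in the fit. The larger rise also needed 0.5 h replicate 1 to be called, and the smaller needed 0.5 h replicate 2.

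Genes of other hormones also moved. ACS1, an ACC synthase, gave all 3 rises among 5 ethylene probe sets. The probe set with the largest change measured 6.20 and 6.03 at 0 h and 8.62 and 7.71 at 0.5 h (2.05 ± 0.44, limma adjusted p = 0.0578), the other two rising by 2.02 and 1.97. All 3 lost the call without 0.5 h replicate 1, the higher of the treated arrays, and for the first probe set the change was then 1.60 (limma adjusted p = 0.253). Among gibberellin genes 6 of 21 probe sets fell and 1 rose (28.6% and 4.76%), with a median change of -0.74. GASA14, a small cysteine-rich protein of the gibberellin-regulated GASA family, measured 5.28 and 6.47 at 0 h and 3.95 and 3.98 at 0.5 h (-1.91 ± 0.33, limma adjusted p = 0.0258). It was called in each leave-one-out fit. The second GASA14 probe set (-0.86 ± 0.20), GASA27 (-1.67 ± 0.30), GASA4 (-0.91 ± 0.27) and both probe sets of GA2OX6 (-1.54 ± 0.42 and -1.46 ± 0.34), an enzyme that inactivates gibberellin, were lost without 0.5 h replicate 1. Values of GASA4 on 1 treated array and of the second GA2OX6 probe set on both lay below background. GAI1, a DELLA repressor of gibberellin responses, was the rise, from 7.66 and 7.76 to 8.47 and 8.73 (0.89 ± 0.15, limma adjusted p = 0.0242), in each leave-one-out fit. This was 1 of 2 GAI1 probe sets tested, and the other was not called. Of 6 auxin probe sets the efflux carrier PIN2A (-1.15 ± 0.32) and LBD23 (-0.71 ± 0.22), of a family of auxin-responsive lateral organ boundary factors, fell, both lost without 0.5 h replicate 1.

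PEP carboxylase kinases rose while the carboxylases themselves were not called. Of 12 probe sets of this list 3 rose and none fell, the 3 being PPCK1, PPCK2 and PPCK3, and all were called also without 0.5 h replicate 1. PPCK2 measured 7.36 and 7.39 at 0 h and 8.89 and 9.26 at 0.5 h (1.71 ± 0.17, limma adjusted p = 0.00501). PPCK3 measured 8.69 and 9.83 at 0 h and 10.46 and 11.46 at 0.5 h (1.71 ± 0.39, limma adjusted p = 0.0706), and PPCK1 measured 7.49 and 7.45 at 0 h and 8.53 and 9.35 at 0.5 h (1.47 ± 0.30, limma adjusted p = 0.048). PPCK2 alone of the 3 was called in each leave-one-out fit, PPCK3 being lost without 0 h replicate 1 or 0.5 h replicate 2 and PPCK1 without either 0 h array. PPCK4 changed by 0.15 ± 0.32, and the probe sets of the carboxylases lay between -0.92 ± 0.53 (PPC1) and 0.57 ± 0.37 (PEPC7), none of them called. Of 12 nitrogen probe sets the cytosolic glutamine synthetase GS1alpha (1.07 ± 0.26) and the nitrate transporter NRT2 (0.77 ± 0.24) rose, both lost without 0.5 h replicate 1.

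Phenylpropanoid genes, which turn phenylalanine into lignin and isoflavonoid precursors, were higher at 0.5 h. By symbol 6 of 14 entry-enzyme probe sets rose and none fell (42.9%), with a median change of 0.66, and 3 of the 6 were called also without 0.5 h replicate 1. C4H, cinnamate 4-hydroxylase, measured 10.94 and 10.93 at 0 h and 11.82 and 11.80 at 0.5 h, or a 1.84-fold rise with very close replicates (0.88 ± 0.14, limma adjusted p = 0.0194). The ligase 4CL1 rose by 0.75 ± 0.16, cinnamoyl-CoA reductase CCR by 0.76 ± 0.18 and 0.51 ± 0.15, and the phenylalanine ammonia-lyase PAL2.1 by 0.71 ± 0.19. The call came from 1 of 2 tested probe sets for 4CL1 and 1 of 3 for PAL2.1. Probe sets of the shikimate and pentose phosphate pathways were taken by description, where 5.80% of all such probe sets rose. Of 11 shikimate probe sets 6 rose and none fell, but none of the 6 was called without 0.5 h replicate 1. DHS1, the entry enzyme, measured 7.49 and 7.73 at 0 h and 8.63 and 8.32 at 0.5 h (0.86 ± 0.26, limma adjusted p = 0.136), while EPSP synthase measured 8.62 and 8.84 at 0 h and 9.98 and 9.13 at 0.5 h (0.83 ± 0.23, limma adjusted p = 0.124). Of 16 pentose phosphate probe sets 6 rose and none fell, and ribose-5-phosphate isomerase (1.15 ± 0.27) was the only 1 of them called also without 0.5 h replicate 1. Glucose-6-phosphate dehydrogenase, G6PDH, rose by 0.70 ± 0.19 and transketolase by 0.67 ± 0.15. Of 26 described class III peroxidases 3 rose, by 1.20 to 1.75, with values on 0.5 h replicate 1 well above those on 0.5 h replicate 2 (10.37 and 9.33 for peroxidase 12), and none was called without the former. Among 40 flavonoid and isoflavonoid probe sets 2 rose, chalcone isomerase CHI1B1 (0.91 ± 0.26, 1 of 4 probe sets) and the isoflavone malonyltransferase IF7MaT (0.68 ± 0.16, 1 of 3), both lost without 0.5 h replicate 1. The flavanone hydroxylase F3H fell from 4.09 and 4.34 to 2.29 and 2.51, values below background, and was at least 1.23-fold lower (limma adjusted p = 0.0314), again lost without that array.

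**Figure D4:**
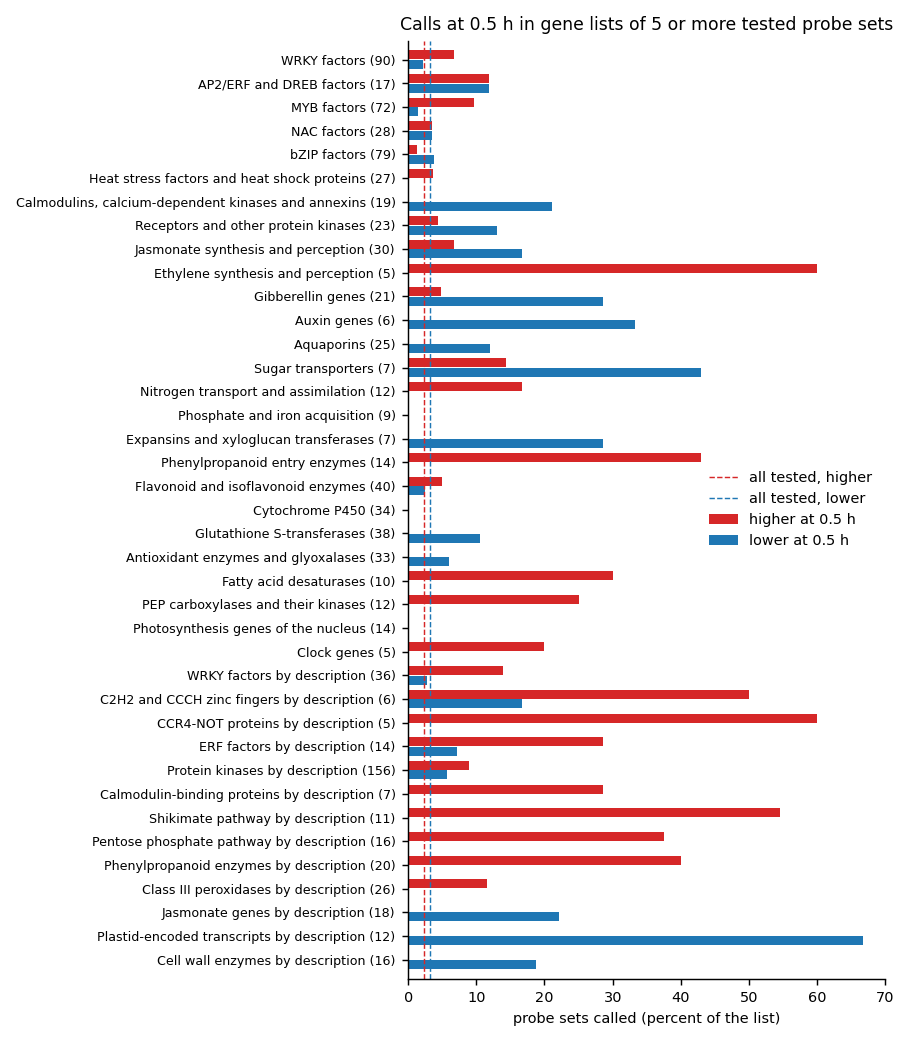
Percent of the tested probe sets of each gene list (rows, number tested in parentheses) called higher (red) or lower (blue) at 0.5 h, with dashed lines at 2.26% and 3.27%, the shares over all tested probe sets. Lists marked by description hold probe sets that the study had selected on these arrays, and lists of under 10 probe sets move by over 10 percentage points with 1 call.

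Aquaporins are the water channels of cell membranes. Of 25 aquaporin probe sets 3 fell (12.0%, against 4.26% of all with a symbol other than a locus number). None rose, and the median change over the list was -0.03. PIP2-6, a plasma membrane aquaporin, measured 8.18 and 7.70 at 0 h and 4.18 and 5.89 at 0.5 h, 7.48-fold lower (-2.90 ± 0.72, limma adjusted p = 0.0863). Without 0.5 h replicate 1 the change was -2.04 (limma adjusted p = 0.34), and neither its second called probe set (-1.99 ± 0.56) nor PIP2-1 (-0.68 ± 0.21) was called then. The 2 PIP2-6 probe sets with the highest signal did not pass the test, at 0.08 and -0.06, and another one at -2.11 was not called. Of 16 wall enzyme probe sets by description 3 fell, and of 7 expansin and xyloglucan transferase probe sets 2 fell, with a median change of 0.04. The pectinesterase, which removes methyl groups from pectin, measured 7.36 and 7.58 at 0 h and 5.31 and 5.67 at 0.5 h (-1.98 ± 0.29, limma adjusted p = 0.0153), in each leave-one-out fit. XTH1, a xyloglucan endotransglucosylase, measured 8.64 and 8.81 at 0 h and 7.22 and 7.12 at 0.5 h (-1.56 ± 0.31, limma adjusted p = 0.0429), and the expansin EXP1, which loosens walls, measured 6.58 and 7.02 at 0 h and 5.57 and 5.91 at 0.5 h (-1.06 ± 0.24, limma adjusted p = 0.0625). Both were lost without 0.5 h replicate 1 or 0 h replicate 2. Cellulose synthase CESA3 fell by 0.75 ± 0.21, also lost without 0.5 h replicate 1. Of 7 sugar transporter probe sets 3 fell and 1 rose. The hexose carrier STP1 measured 8.43 and 8.92 at 0 h and 7.29 and 6.95 at 0.5 h (-1.56 ± 0.24, limma adjusted p = 0.0187), with a second probe set at -0.96 ± 0.24, and the monosaccharide transporter MST1 fell by 1.17 ± 0.28. The sucrose transporter SUT1 rose by 0.87 ± 0.24. SUT1, MST1 and the second STP1 probe set were lost without 0.5 h replicate 1, and the first STP1 probe set was called in each leave-one-out fit.

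Plastid gene transcripts fell in 8 of 12 described probe sets (66.7%, against 4.34% of all described ones), with a median change of -0.87 and none higher. However, 2 of the 12 (a photosystem II W protein and a Ycf20-like protein, neither called) are products of nuclear genes in Arabidopsis. Cytochrome b6/f subunit V measured 7.96 and 8.73 at 0 h and 6.84 and 6.87 at 0.5 h (-1.49 ± 0.31, limma adjusted p = 0.0519), and its second probe set fell by 0.87. The ATP synthase beta chain fell in 2 probe sets by 1.43 and 0.84, and the Clp protease subunit fell by 1.29 ± 0.27. The second probe sets of subunit V and of the beta chain were the only 2 of the 8 called also without 0.5 h replicate 1. Of 14 probe sets of nuclear photosynthesis genes none was called, and their median change was 0.03.

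Calls in the detoxification lists were falls only. They made up 10.5% of the glutathione S-transferase list and 6.06% of the antioxidant and glyoxalase list. Of all tested probe sets with a symbol other than a locus number 4.26% fell, so the second share was close to the background. Of 38 glutathione S-transferase probe sets 4 fell and none rose, GSTF5 by 1.57, GSTL3 by 1.12 and 0.74 and GSTU13 by 0.65, and none of the 4 was called without 0.5 h replicate 1. GLYI-17, a glyoxalase I, which detoxifies methylglyoxal, measured 8.74 and 9.78 at 0 h and 7.23 and 6.31 at 0.5 h, 5.62-fold lower (-2.49 ± 0.46, limma adjusted p = 0.0331), and was lost without 0 h replicate 2. GLYI-19 fell by 1.54 ± 0.40 and was lost whichever array was left out, and the other 31 antioxidant and glyoxalase probe sets were not called. The oleate desaturases FAD2-2 (0.67 ± 0.15 and 0.61 ± 0.16) and FAD2-3 (0.65 ± 0.15) rose among 10 desaturase probe sets, all 3 lost without 0.5 h replicate 1. The chaperone HSP90-1 (0.58 ± 0.16, 1 of 27 heat shock probe sets) and the clock factor LHY (0.70 ± 0.20, 1 of 5) rose and were lost whichever array was left out. No probe set was called at 0.5 h among 34 for cytochrome P450 by symbol, 9 for phosphate and iron acquisition or 4 for sodium, potassium and proton transport. A described E-class P450 outside that list fell from 8.18 and 8.44 to 6.12 and 5.35 (-2.58 ± 0.35, limma adjusted p = 0.0109).

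Several of the strongest changes belonged to transcripts without a gene name. The largest rise, 16.2-fold, was that of Gma.13607.1.S1_at, which measured 4.38 and 4.85 at 0 h and 8.38 and 8.88 at 0.5 h (4.02 ± 0.35, limma adjusted p = 0.00388). Of the 10 largest rises called with and without 0.5 h replicate 1, 5 had neither a symbol nor a description, and of the 10 largest falls 2 had neither. GmaAffx.47896.1.S1_at measured 5.65 and 5.01 at 0 h and 7.95 and 8.96 at 0.5 h (3.12 ± 0.52, limma adjusted p = 0.0239), and Gma.17176.2.S1_at measured 8.44 and 8.01 at 0 h and 5.40 and 5.55 at 0.5 h (-2.75 ± 0.30, limma adjusted p = 0.00579). These 3 were chosen after their values were seen. Of the 24 largest changes among named genes 11 are known by a locus number only. LOC100500357 is 1 of them, although another probe set of that locus is described as a CCR4-NOT protein. LOC100785417, at 3.40 and 2.86 at 0 h and thus below background, reached 5.91 and 7.25 at 0.5 h, at least 6.36-fold higher when the 0 h values are set to the background level (limma adjusted p = 0.0331), a call lost without 0 h replicate 2. LOC100800709 measured 8.12 and 8.97 at 0 h and 6.57 and 5.09 at 0.5 h (-2.71 ± 0.43, limma adjusted p = 0.0209). A glycosyl hydrolase of family 1, the family of beta-glucosidases, rose from 8.84 and 8.73 to 11.00 and 10.95 (2.19 ± 0.22, limma adjusted p = 0.00501).

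The 1 h arrays were set against the 0.5 h arrays directly, which gave 243 probe sets with a higher level (0.851%) and 198 with a lower level (0.693%) at the later time. Against 0 h, 51 were called higher (0.179%) and 107 lower (0.375%) on the 1 h arrays. SCOF-1 was lower at 1 h than at 0.5 h by -1.82 ± 0.28 (limma adjusted p = 0.0433), and its change from 0 h was then -0.10. STZ differed by -1.52 ± 0.20 (limma adjusted p = 0.0245), CZF1 by -1.45 ± 0.23 (limma adjusted p = 0.0487) and the CCR4-NOT transcript by -1.76 ± 0.28 (limma adjusted p = 0.0487). These genes were chosen on their 0.5 h values and the difference uses the same 0.5 h arrays, so a return toward 0 h is favoured by that choice. In the other direction, GASA14 was higher at 1 h than at 0.5 h by 2.81 ± 0.33 (limma adjusted p = 0.016) and EXP1 by 2.22 ± 0.24 (limma adjusted p = 0.011). EXP1, low at 0.5 h, was 1.16 above its 0 h level at 1 h and called higher there. Of 105 named genes 21 gave a call between the 2 times, and 4 of the 21 did so without 0.5 h replicate 1, namely STZ, GASA14, EXP1 and LOC100500357. The difference was then -1.81 for SCOF-1 (limma adjusted p = 0.181), -1.61 for CZF1 (limma adjusted p = 0.152) and -1.85 for the CCR4-NOT transcript (limma adjusted p = 0.181). LOC100500357 is also the symbol of the probe set described as a CCR4-NOT protein that rose by 2.33 at 0.5 h. Other transcripts gave no call between the 2 times. PPCK2 stood 1.71 above 0 h at 0.5 h and 1.59 above it at 1 h (difference -0.12 ± 0.17), and the HDZip I factor stood at -1.01 and -0.95 (difference 0.06 ± 0.16). SCAM-5 stood at -1.35 and -1.10, with a difference of 0.25 ± 0.17. The comparisons of 0.5 h and 1 h with 0 h share the 0 h arrays. For WRKY53 the values were 2.68 at 0.5 h and 1.79 at 1 h (difference -0.89 ± 0.26, limma adjusted p = 0.211), so a decline was not shown. At 24 h WRKY53, SCOF-1, CZF1 and the CCR4-NOT transcript were called lower than at 0 h and PPCK2 was called higher, where 6.07% of all tested probe sets were higher and 19.6% lower.

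**Figure D5:**
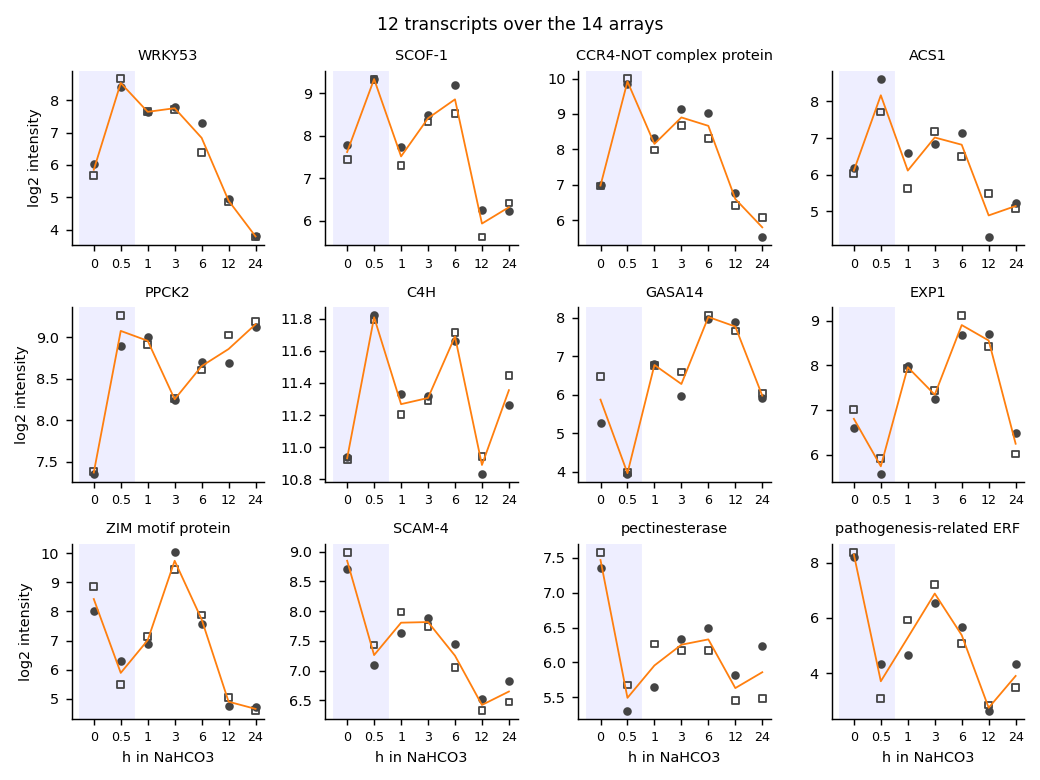
Log2 intensity (vertical axes, each on its own scale) of 12 transcripts on all 14 arrays against hours in NaHCO3 (horizontal axis, not to scale), filled circles for replicate 1, open squares for replicate 2 and a line through the means of 2 arrays. The shaded band holds the 0 h and 0.5 h arrays, where the group values do not overlap in any panel, and GASA14 and EXP1 are higher at 1 h than at 0.5 h.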

How the data were processed

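Root RNA of 14 pools was hybridized to 1-colour Affymetrix arrays, 2 replicates at each of 7 times. The intensity values were deposited by the authors after dChip modelling on perfect-match probes, with 1 array per time scaled to the median of all arrays and the other fitted by invariant set. The labels and the methods differ on plant age and day length, and the labels are followed here. Values under 1 were raised to 1 and log2 taken. Soybean probe sets (37593) were tested where the mean log2 over all arrays exceeded background, 3.91, the 95th percentile of 23350 pathogen probe sets, and the replicate SD/mean limit of 0.5 was met (28566). Limma 3.58.1 in R 4.3.3 fitted all 14 arrays in 7 groups, so p-values rest on the spread between pools, described in the methods as separate biological replicates, and on 2 arrays a group, which limits the precision. P-values were adjusted by Benjamini-Hochberg over all tested probe sets.

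Symbols came from the platform annotation (7389 tested probe sets with 1 symbol) and descriptions from the study's tables (2533). The rule named, among probe sets with a symbol or description, the 12 largest rises and falls called with and without 0.5 h replicate 1, the 3 largest each way lost without it, up to 3 called members of each of 43 lists, WRKY41, CPK32 and gapdh. Further list members and the unnamed probe sets were added after their values were seen. Members and lists were chosen with earlier results of these data known. Replicate numbers were not used to pair arrays in the main fit (correlation of deviations -0.05 between 0 h and 0.5 h, the only times checked). Summed nodule intensity was higher on replicate 1 than on replicate 2 at every time except 24 h. Whether replicates of the same number share plants or handling was not tested. The test was checked on simulated data with independent noise, where 34 of 28366 unchanged probe sets were called. No genome was used, so no coordinates are given. Alternatives covered the arrays in the fit, each array left out, the replicate block, scaling, filter, floor, variance model, test and limit.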

Additional observations from a re-analysis of the deposited data

Results flagged for a closer look

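For 21 named genes the 1 h and 0.5 h levels differed by the direct test between those arrays (limma adjusted p under 0.15), where all tested probe sets gave 243 higher and 198 lower levels at the later time. The genes were chosen on their 0.5 h values and the test uses the same 0.5 h arrays, so a direction back toward 0 h is favoured by the choice. Without 0.5 h replicate 1, an alternative chosen after the values were seen, all 21 kept their sign and 4 the call, LOC100500357, STZ, EXP1 and GASA14. Of the 21 genes 15 had risen at 0.5 h and were lower at 1 h. The log2 difference, 1 h minus 0.5 h, was -2.05 for ACS1, -2.04 for LOC100783376, -2.03 for LOC100500357, -1.86 for LOC100526897 and -1.82 for SCOF-1. It was -1.76 for the CCR4-NOT complex protein, -1.76 for LOC100811478, -1.52 for STZ, -1.48 for the glycosyl hydrolase of family 1 and -1.45 for CZF1. It was -1.27 for the ERF5-like factor, -1.11 for LOC100305963, -1.07 for the calmodulin-binding family protein, -0.77 for 4CL1 and -0.65 for FAD2-2. The other 6 had fallen at 0.5 h and were higher at 1 h, EREBP1 by 0.83, PIP2-1 by 0.96, LOC100776258 by 1.26, GASA27 by 1.36, EXP1 by 2.22 and GASA14 by 2.81. The 1 h arrays also differed in nodule transcripts, with summed intensities of 6091 and 1862, and in poly-A controls, with means of 8.23 and 8.75 against 7.02 and 7.21 at 0.5 h. Their part in these differences was not tested.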

How the results depend on the processing

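Rises numbered 647 and falls 935 with all arrays. Leaving out each array in turn gave 183 to 596 rises and 142 to 1248 falls, the fewest without 0 h replicate 2 and the most without 0.5 h replicate 2. With only the 4 arrays at 0 and 0.5 h there were 126 and 166, with no filter 388 and 576, and at an adjusted p under 0.05 there were 160 and 217. The methods' t-test called 0 either way after Benjamini-Hochberg, and 1328 and 1394 at an unadjusted p under 0.05. After quantile normalization without 0.5 h replicate 1 there were 324 and 364, and after median centring without it 262 and 256, 2 alternatives chosen after seeing the data. Counts with the replicate block (581 and 903), quantile normalization (967 and 1007), median centring (953 and 809), the filter on the 4 arrays (617 and 894), a floor of 16 (895 and 1209) and a variance trend (771 and 1149) stayed within 1.5 times. No probe set called with all arrays was called the other way in any of these fits. Of 105 named genes and gapdh, 51 kept their side of the limit without 0.5 h replicate 1, 37 without 0 h replicate 2, 100 with the replicate block and 102 with quantile normalization. Probe sets near background give only bounds on a fold.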
